A study of Drosophila melanogaster with 15 samples.

Results

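The comparison set 4 transgenic Drosophila melanogaster lines that express Dsup against control flies, both after 1000 Gy of ionizing radiation. It used 7 of the 15 arrays of the study: 1 array for each of the irradiated lines Dsup-1 to Dsup-4, and 3 irradiated control arrays labelled as biological replicates. Each array measured total RNA from the pooled whole bodies of 25 males aged 3 days. The other 8 arrays held untreated flies, 4 control replicates and the same 4 Dsup lines, and are used here for comparison and for the estimate of the spread. The control strain, the promoter that drives Dsup and the delay between irradiation and RNA isolation are not named in the labels. Since each Dsup array was a different line, differences in genetic background and the transgene cannot be told apart. A fly array carries no probe set for Dsup, so the transgene itself was not measured.

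Dsup is a damage suppressor protein of the tardigrade Ramazzottius varieornatus that binds nucleosomes. Ionizing radiation breaks DNA and produces reactive oxygen species. In Drosophila it is known to raise p53-dependent genes for the joining of broken DNA ends, together with detoxifying enzymes and chaperones.

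Values are log2 levels after quantile normalization brought all 15 arrays to the same distribution. Differences are Dsup lines minus control among irradiated flies, with the standard error of limma's linear model, and a gene was called at a Benjamini-Hochberg adjusted p below 0.05 over 18769 probe sets. One probe set represented each of 11982 genes. Levels in the lowest 40% of all probe sets, below 3.35 on the log2 scale on average over the 15 arrays, are named as dim. In a whole-body sample, fewer cells of a type and less RNA per cell cannot be told apart.

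The irradiated array of Dsup line 1 stood apart from those of lines 2 to 4. Over probe sets that were not dim, its correlation with the irradiated controls was 0.988 to 0.991, and with Dsup lines 2 to 4 it was 0.982 to 0.985. The label of this array could not be checked through Dsup itself, since no probe set measures Dsup. This array shared 52 to 67 identical deposited values with each of Dsup lines 2 to 4 and 0 with each irradiated control. Deposited means differed by group, so that count is not an independent check. CG31664, called higher in the Dsup lines in both treatments, read 5.0 in this array and 3.47 to 4.16 in the irradiated controls. Such calls included line 1, and whether its label is right was not tested. The label bears on every difference over 4 lines, so values without line 1 are given beside the leading results. Lines 2 to 4 correlated at 0.985 to 0.993 with each other and at 0.975 to 0.982 with the controls. The hybridisation spike-ins, added RNAs of known amount, also read lower in irradiated control 1, control 2 and Dsup line 1 (2.73 to 3.08 above the array median on the log2 scale) than in control 3 and Dsup lines 2 to 4 (3.54 to 3.76). The part of this split in the results was not tested, but control 3 can be set against lines 2 to 4 within the arrays of higher spike-in level, and controls 1 and 2 against line 1 within those of lower level. Both differences are given beside 3 leading genes, and each rests on 1 array in 1 of its groups. The 3 irradiated control arrays shared 6814 to 7744 identical deposited values in each pair, against at most 209 in any other pair of arrays. Their median standard deviation over probe sets was 0.0481, against 0.131 among irradiated Dsup lines and 0.154 among untreated controls. Whether these 3 arrays are independent replicates was not tested. Narrow control ranges, and groups that do not overlap, are thus not a measure of replicate precision. These arrays also enter the pooled spread, so standard errors and adjusted p-values may be too small. The 3′ minus 5′ signal of actin and GAPDH, a measure of RNA integrity, spanned 1.34 to 1.51 in the irradiated controls and 1.25 to 1.46 in the irradiated Dsup lines. Markers fitted the labelled whole males: the 30 measured accessory gland genes averaged 8.68 to 8.85 in every irradiated array, while the yolk protein gene Yp1 stayed between 1.70 and 1.86.

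After 1000 Gy, 542 genes were higher and 682 were lower in the Dsup lines than in the control, 10.2% of the genes tested in either direction, 4.52% higher and 5.69% lower. Among the 9353 genes that were not dim, 305 were higher and 358 lower, which is 3.26% and 3.83%, or 7.09% together. Over all genes, the 4 Dsup arrays lay wholly above the 3 controls in 16.1% and wholly below them in 17.4%. Differences of 2-fold or more in these brighter genes were mostly reductions, with 6 higher and 38 lower. Without Dsup line 1, the calls over all genes came to 699 higher (5.83%) and 821 lower (6.85%), 12.7% together. By probe sets 2246 were called, and 1105, 1057 and 1237 without control 1, 2 and 3. The split of the 2246 was 1110 higher and 1136 lower, and it turned with the scaling: 3228 higher and 1004 lower when array medians were set equal, 2336 and 1386 when ribosomal protein genes were, and 291 and 11315 on the deposited scale, where the median over genes was -0.45. The lower genes included detoxifying enzymes, heat shock genes and genes for repair of DNA breaks, several of them by 2-fold or more. The higher genes included lipid enzymes and, with smaller differences, maltases.

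Line 1 lay between the control and the other Dsup lines for most genes with large reductions. Of the 663 called genes that were not dim, 67 were at least 2-fold lower in the mean of lines 2 to 4 than in the control. Line 1 showed a median of 0.239 of that difference, and less than 50% of it in 59 of these genes. For the 15 genes at least 2-fold higher in lines 2 to 4, the median share was 0.48. The choice of called genes with a large difference in lines 2 to 4 shapes these shares, so they are a description of where line 1 lies.

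**Figure D1:**
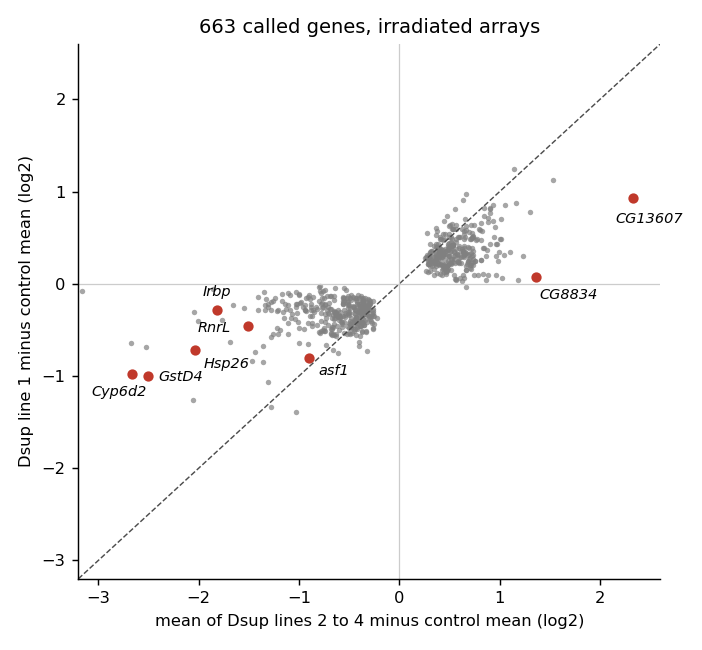
Each point is 1 of the 663 called genes that were not dim; the x axis gives the mean of irradiated Dsup lines 2 to 4 minus the control mean and the y axis irradiated Dsup line 1 minus the control mean, both in log2 units. Points between the horizontal zero line and the dashed line of equality show genes in which line 1 differed from the control by less than lines 2 to 4 did, as for Irbp, Hsp26 and GstD4, while asf1 lies close to equality.

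Delta-class glutathione S-transferases attach glutathione to reactive compounds, and their genes were lower in the irradiated Dsup lines almost throughout the family. Of 11 measured members, 9 were called lower and 0 higher, against 5.69% of all genes called lower. The median difference of the family was -1.04, where that of all genes was 0.00. Without line 1 the count stayed at 9 lower and the median was -1.25. In line 1 alone the family's median was -0.55.

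GstD4 read 6.79, 7.11 and 6.19 in irradiated controls 1 to 3 and 5.70, 3.55, 4.27 and 4.73 in irradiated Dsup lines 1 to 4. All 4 lines lay below all 3 controls, and line 2 was the lowest. The difference was -2.13 ± 0.36 (SE), a 4.39-fold reduction with an adjusted p of 0.00193, and it was -2.51 without line 1, -2.01 within the arrays of higher spike-in level and -1.25 (adjusted p = 0.232) within those of lower level. In untreated flies GstD4 averaged 1.79 ± 0.14 (SD, n = 4) in the control and 1.94 ± 0.35 (SD, n = 4) in the Dsup lines. Both untreated means lay below the dim limit of 3.35, so a genotype difference there could be missed. Within that limit, the genotype difference after irradiation was larger than in untreated flies, by -2.28 in the test of the interaction (adjusted p = 0.0106).

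GstD2 read 9.26, 9.66 and 8.88 in the controls and 8.63, 5.67, 6.63 and 7.46 in Dsup lines 1 to 4. Line 1 was just below the lowest control, and lines 2 to 4 were well below all controls. The difference of -2.17 ± 0.67 had an adjusted p of 0.0472 and was -2.68 without line 1. This call was lost when control 1, 2 or 3 or Dsup line 2, 3 or 4 was left out, with adjusted p up to 0.165.

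GstD1, the member with the highest probe signal, was lower by a smaller amount: it read 11.90 to 12.11 in the controls and 11.77, 11.19, 11.20 and 11.39 in the lines, a difference of -0.62 ± 0.15 (adjusted p = 0.0166; -0.74 without line 1). GstD3, GstD6, GstD7, GstD8, GstD9 and GstD10 were called lower with differences between -1.13 and -0.61. GstD6 is dim. The calls of GstD4, GstD6 and GstD8 held without any 1 of the 7 arrays. GstD7 lost its call without control 1 and GstD10 without control 2. GstD1 lost it without Dsup line 3, control 2 or control 3, GstD9 without Dsup line 2 or 3 or control 1 or 2, and GstD3 without any 1 array other than line 1, with adjusted p of at most 0.12.

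GstD5 did not pass the test after irradiation, with a difference of -1.25 ± 0.55 and an adjusted p of 0.159. Its genotype difference in untreated flies was 2.33 (adjusted p = 0.011), and the interaction of -3.58 was called (adjusted p = 0.00902). GstD11 read 3.15 to 3.27 in the controls and 3.11 to 3.72 in the lines. Delta family members are close paralogs, and cross-hybridisation between their probe sets was not tested.

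The epsilon family of the same enzyme class differed less. Of 13 measured epsilon genes, GstE1 alone was called by its brightest probe set, at 9.34 to 9.39 in the controls and 9.06, 8.23, 8.42 and 8.42 in Dsup lines 1 to 4. That is a difference of -0.84 ± 0.18 (adjusted p = 0.00658; -1.02 without line 1). The family's median difference was -0.20. Without line 1, 2 epsilon genes were called lower. A dim probe set of GstE9 was also called lower (-1.25, adjusted p = 0.000301), while its brightest one was not (-0.12).

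Both subunits of glutamate-cysteine ligase, which makes the precursor of glutathione, were lower. The catalytic subunit Gclc read 8.41 to 8.42 in the controls and 7.99, 7.93, 7.86 and 7.96 in the lines, without overlap (-0.48 ± 0.08, adjusted p = 0.00135; -0.50 without line 1). The modifier subunit Gclm differed by -0.68 ± 0.19 (adjusted p = 0.0298; -0.82 without line 1), and lost its call without Dsup line 2 or 3 or any 1 control, with adjusted p up to 0.104. The theta class gene GstT4 went the other way, from 7.75 to 8.09 in the controls to 8.13, 9.02, 8.75 and 8.82 in the lines (0.79 ± 0.19, adjusted p = 0.0139; 0.98 without line 1). GstT4 lost its call without control 1 or control 2, with adjusted p up to 0.0715. Over the 18 measured antioxidant and glutathione synthesis genes, 2 were higher and 2 lower, against 4.52% and 5.69% of all genes, with a median of 0.00.

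**Figure D2:**
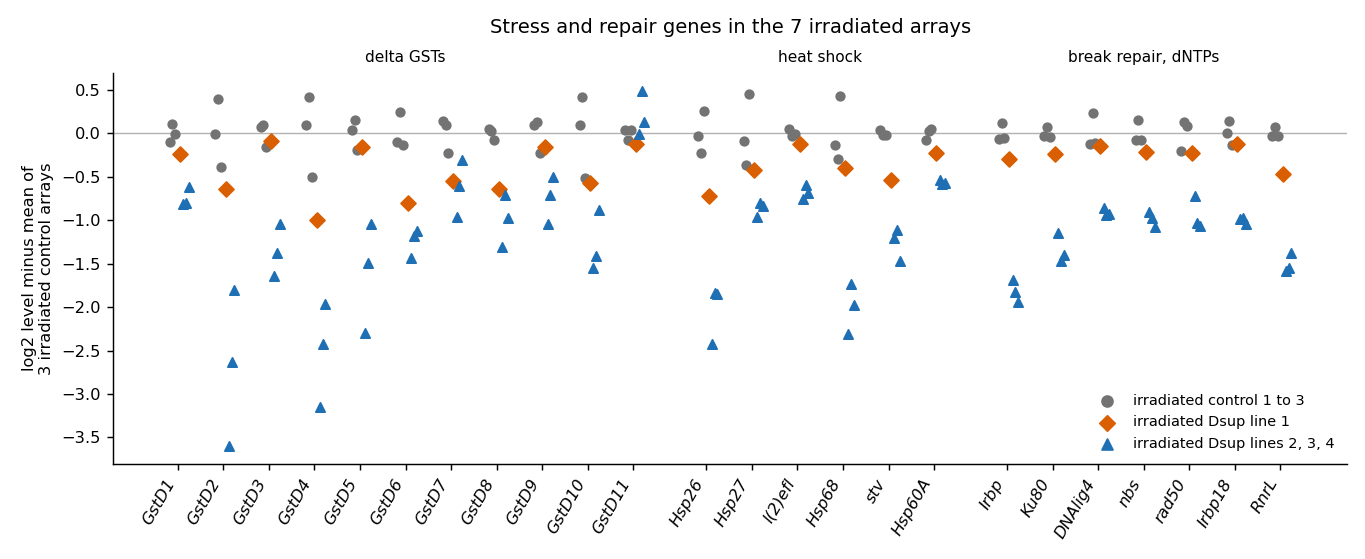
Log2 level minus the mean of the 3 irradiated control arrays (y axis) for delta glutathione S-transferases, heat shock genes and genes of break repair and deoxynucleotide synthesis (x axis), with 1 point per array. Dsup lines 2 to 4 (triangles) lie below the controls (circles) for every gene shown except GstD11, and line 1 (diamonds) lies between them or near the controls for most genes.

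Several genes for the joining or holding of broken DNA ends, taken from the radiation response and repair lists, were lower in the Dsup lines after irradiation. Irbp encodes Ku70, which with Ku80 forms the heterodimer that binds broken ends. Irbp read 6.25, 6.44 and 6.26 in the controls and 6.02, 4.63, 4.49 and 4.38 in Dsup lines 1 to 4. Lines 2 to 4 were close to each other and far below the controls, while line 1 lay just below the lowest control. The difference was -1.44 ± 0.29 (2.7-fold, adjusted p = 0.00506), -1.82 without line 1, -1.76 within the arrays of higher spike-in level and -0.32 (adjusted p = 0.661) within those of lower level.

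Ku80 showed the same order of arrays, with 6.46, 6.57 and 6.45 in the controls and 6.26, 5.35, 5.02 and 5.09 in the lines. Its difference was -1.06 ± 0.23 (adjusted p = 0.00776), and -1.34 without line 1. In untreated flies, Ku80 averaged 4.59 ± 0.28 (SD, n = 4) in the control and 4.62 ± 0.12 (SD, n = 4) in the Dsup lines. The interaction was called for Ku80 (-1.10, adjusted p = 0.0409) and just missed the threshold for Irbp (-1.28, adjusted p = 0.0568).

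DNAlig4, the ligase that completes end joining, differed by -0.72 ± 0.17 (adjusted p = 0.0143; -0.91 without line 1). Its level of 5.65 in line 1 was near the controls' 5.67, 6.03 and 5.69, and lines 2 to 4 were between 4.86 and 4.94. nbs and rad50, which encode subunits of the complex that holds and processes broken ends, differed by -0.79 ± 0.16 (adjusted p = 0.00572) and -0.76 ± 0.22 (adjusted p = 0.0352). Without line 1 these were -0.99 and -0.94. Irbp18, a bZIP transcription factor, differed by -0.78 ± 0.18 (adjusted p = 0.0119), again with line 1 at 7.42 inside the control range of 7.40 to 7.68. DNAlig4 and Irbp18 lost their calls without control 2, and rad50 lost it without any 1 array other than line 1, with adjusted p up to 0.136. The calls of Irbp, Ku80 and nbs held without any 1 array.

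RnrL, the large subunit of ribonucleotide reductase, which supplies deoxynucleotides for DNA synthesis and repair, read 5.77, 5.87 and 5.77 in the controls and 5.34, 4.22, 4.25 and 4.42 in the lines. The groups did not overlap. The difference was -1.25 ± 0.27 (adjusted p = 0.0081; -1.51 without line 1). The interaction of -1.64 was called (adjusted p = 0.0134).

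In the list of p53 and radiation response genes, 7 of 13 measured members were called lower and 0 higher, against 5.69% and 4.52% of all genes, with a median of -0.73. The count was the same without line 1, and line 1 alone had a median of -0.22. The transcription factor p53 itself read 6.34 to 6.37 in the controls and 6.37, 6.18, 5.90 and 5.87 in the lines, and was not called (-0.28 ± 0.13, adjusted p = 0.202). Corp, a p53 target that acts on p53, was not called either (-0.40 ± 0.16, adjusted p = 0.114), although all 4 lines lay below the controls. With the replicate number as a block, which the main fit did not use, Corp was called (-0.38, adjusted p = 0.0398). Leaving out any 1 of the 7 arrays did not make it called, with adjusted p of 0.0843 to 0.341.

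Other repair genes divided between both directions, with 6 of 28 measured repair and checkpoint genes lower and 3 higher, against 5.69% and 4.52% of all genes. The lower ones included agt, an alkyltransferase that removes alkyl groups from guanine, at 5.90 to 6.20 in the controls and 4.88 to 5.65 in the lines, with line 1 the highest of them (-0.87 ± 0.19, adjusted p = 0.00704; -1.04 without line 1). They also included XRCC1, a scaffold of single-strand break repair that is dim (-0.76), gkt, the tyrosyl-DNA phosphodiesterase (-0.50), mei-9, a nucleotide excision repair nuclease (-0.43), and Xpd, a helicase that is dim (-0.75). Another, dim, probe set of gkt gave -1.61, so the size of that difference is uncertain. The higher genes were tefu, the fly ATM kinase (0.38), and the dim nuclease mus81 (0.53) and Fancd2 (0.45). Fancd2 lost its call when Dsup line 2 or 3 or any 1 control was left out (adjusted p up to 0.0823), and another probe set for it was not called (0.05).

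Heat shock genes were a further group with reductions. Of 12 measured heat shock and chaperone genes 6 were called lower and 0 higher, against 5.69% and 4.52% of all genes, with a median of -0.49, and the count was also 6 without line 1. The small heat shock gene Hsp26 read 10.07, 9.87 and 10.36 in the controls and 9.38, 7.67, 8.26 and 8.25 in Dsup lines 1 to 4. Every line was below every control and line 2 was the lowest. The difference was -1.71 ± 0.30 (3.27-fold, adjusted p = 0.00213), -2.04 without line 1, -2.30 within the arrays of higher spike-in level and -0.59 (adjusted p = 0.658) within those of lower level.

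Untreated flies of both genotypes averaged 7.94 for Hsp26, with SDs of 0.15 in the control and 0.40 in the Dsup lines (n = 4 each). The interaction for Hsp26 was -1.71 (adjusted p = 0.0177). Hsp68, an inducible member of the Hsp70 family, read 8.36, 8.19 and 8.92 in the controls and 8.09, 6.18, 6.75 and 6.51 in the lines (-1.61 ± 0.35, adjusted p = 0.0079; -2.01 without line 1). Line 1 was just under the lowest control.

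The BAG-family co-chaperone stv differed by -1.08 ± 0.19 (adjusted p = 0.00207; -1.26 without line 1). Its untreated difference was -0.53 (adjusted p = 0.063), and its interaction was not called (-0.55, adjusted p = 0.199). Hsp27 differed by -0.76, the small heat shock gene l(2)efl by -0.54 and the mitochondrial chaperonin Hsp60A by -0.48, or -0.87, -0.68 and -0.56 without line 1. These 3 calls did not hold without each array in turn: l(2)efl and Hsp60A lost theirs without any 1 array other than line 1, and Hsp27 without any 1 of Dsup lines 2 to 4, control 1 or control 3, with adjusted p up to 0.141. A second bright probe set of l(2)efl was not called (-0.19), and a dim one was called lower (-0.84, adjusted p = 0.0158).

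**Figure D3:**
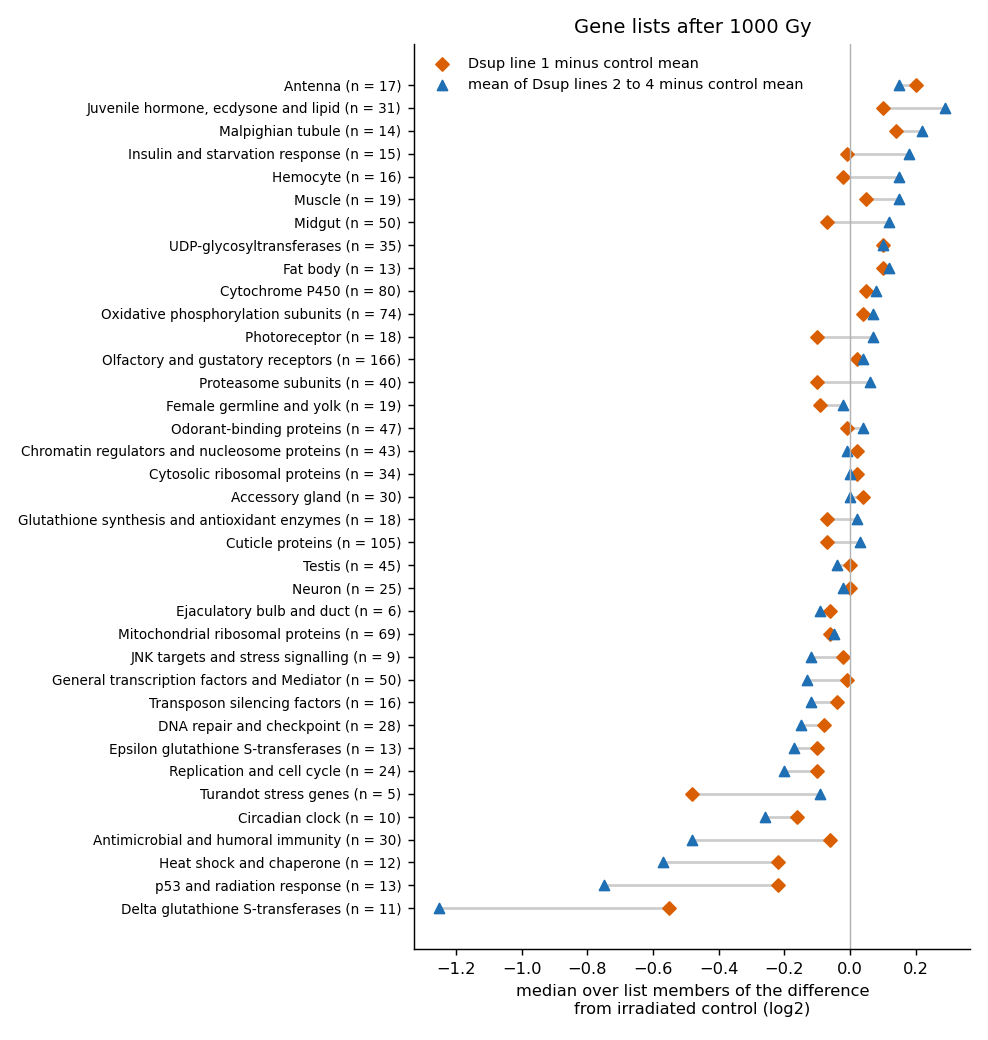
Median difference from the irradiated control mean over the measured members of each gene list (x axis, log2), for Dsup line 1 (diamonds) and for the mean of Dsup lines 2 to 4 (triangles), with the number of members in brackets. The delta glutathione S-transferase, p53 and radiation response, and heat shock lists lie farthest below zero in lines 2 to 4, at -1.25, -0.75 and -0.57, with line 1 at -0.55, -0.22 and -0.22.

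Detoxifying enzymes outside the glutathione families went in both directions. Of 80 measured cytochrome P450 genes 5 were higher and 2 lower, a share near that of all genes (10.2% called), and of 35 UDP-glycosyltransferases 3 were higher and 3 lower. Cyp6d2 read 7.94 to 8.31 in the controls and 7.11, 5.29, 5.24 and 5.73 in the lines. The difference of -2.25 ± 0.38 was 4.75-fold (adjusted p = 0.00198), and -2.67 without line 1. In untreated flies its genotype difference was 0.03 (adjusted p = 0.97), and the interaction was called (-2.28, adjusted p = 0.0148). The glycosyltransferase Ugt302K1, dim on average over all arrays, read 5.53, 5.38 and 4.75 in the controls and 3.62, 2.03, 2.29 and 2.51 in the lines (-2.61 ± 0.30, adjusted p = 0.000145; -2.94 without line 1).

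Among the P450 genes that were higher, Cyp6v1 differed by 0.91 ± 0.18 (adjusted p = 0.00418; 1.10 without line 1) and Cyp4ae1 by 0.67 ± 0.12 (adjusted p = 0.00215; 0.72 without line 1). Cyp6a2 read 7.54 to 7.69 in the controls and 8.45, 8.54, 8.65 and 8.77 in the lines, so that line 1 stood with the other lines. The adjusted p was 0.0414, with an SE of the difference of 0.30, and the call was lost without any 1 array other than line 1, with adjusted p up to 0.127. The dim Ugt304A1 was higher, at 2.01 to 2.03 in the controls and 2.92 to 3.21 in the lines (adjusted p = 6.02e-05; difference 1.04 without line 1). The dim Ugt49B2 was lower, at 2.35 to 2.36 in the controls and 1.39 to 1.56 in the lines (-0.90 with and without line 1).

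Several digestive enzymes of the midgut were higher in the irradiated Dsup lines. In the list of 50 measured midgut genes 7 were called higher and 2 lower, against 4.52% and 5.69% of all genes. The 7 were the maltases Mal-A1, Mal-A3, Mal-A4, Mal-A6 and Mal-A8, which split maltose and related sugars, and the serine proteases Jon44E and Ser6. Mal-A4 read 8.08, 7.99 and 7.92 in the controls and 8.36, 8.97, 8.58 and 8.64 in the lines. All lines were above all controls, with line 1 the nearest to them. The difference was 0.64 ± 0.14 (adjusted p = 0.00802; 0.73 without line 1).

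The other 4 maltases differed by 0.43 to 0.69, and Jon44E and Ser6 by 0.79 and 0.65. Mal-A6 was at 8.82 to 9.20 in the irradiated controls and 9.54 to 9.95 in the lines, and averaged 10.47 ± 0.10 (SD, n = 4) in untreated controls and 10.32 ± 0.38 (SD, n = 4) in untreated Dsup lines. The interaction was called for Mal-A1 (0.60), Mal-A6 (0.82) and Mal-A8 (0.88). Of these 7 calls, that of Mal-A4 held without any 1 array. The other 6 were lost without Dsup line 2 or control 1, and some also without another array, with adjusted p up to 0.127, and all 7 were kept without line 1. When ribosomal protein genes were set equal, Mal-A3 (0.46) and Jon44E (0.66) were not called. Over the whole list the median difference was 0.10, with -0.07 in line 1 and -0.37 on the deposited scale, and the mean level was 7.37 to 7.47 in the controls and 7.39 to 7.61 in the lines.

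The 2 lower midgut genes encode lysosomal alpha-mannosidases. LManIV, dim on average, read 3.42, 4.22 and 3.96 in the controls and 2.61, 1.74, 1.57 and 1.68 in the lines (-1.97 ± 0.22, adjusted p = 0.000134; -2.20 without line 1). LManIII differed by -0.64 ± 0.16 (adjusted p = 0.0191; -0.73 without line 1) and lost its call without Dsup line 3, control 1 or control 2 (adjusted p up to 0.113).

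Genes of lipid and hormone handling were also higher where they were called. In the list of juvenile hormone, ecdysone and lipid genes 5 of 31 measured members were higher and 0 lower, against 4.52% and 5.69% of all genes, with a median of 0.23 (-0.24 on the deposited scale), and 4 were higher without line 1. The lipase Lip4 differed by 0.86 ± 0.26 (adjusted p = 0.0417), the sterol-binding protein Npc2a by 0.58 ± 0.17 (adjusted p = 0.0373) and gce, a receptor for juvenile hormone, by 0.87 ± 0.24 (adjusted p = 0.0269). None of these 3 calls held without each array in turn: Npc2a lost its call without any 1 array other than Dsup line 2, with adjusted p up to 0.118 (0.56, adjusted p = 0.063 without line 1), Lip4 without any 1 array other than Dsup line 1, with adjusted p up to 0.181, and gce without Dsup line 2 or 4 or any 1 control. A dim probe set of gce was not called (0.34).

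The acyl-CoA synthetase gene Acsx3 read 5.49 to 5.59 in the controls and 5.84, 6.71, 6.96 and 6.66 in the lines (0.99 ± 0.19, adjusted p = 0.00414; 1.23 without line 1). It was higher in untreated Dsup lines as well (0.65, adjusted p = 0.031). CG8834 read 7.25 to 7.29 in the controls, 7.33 in line 1 and 8.57 to 8.71 in lines 2 to 4. Its difference was 1.03 ± 0.26 (adjusted p = 0.0161) and 1.36 without line 1, and the call was lost without Dsup line 4 or any 1 control (adjusted p up to 0.0619).

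**Figure D4:**
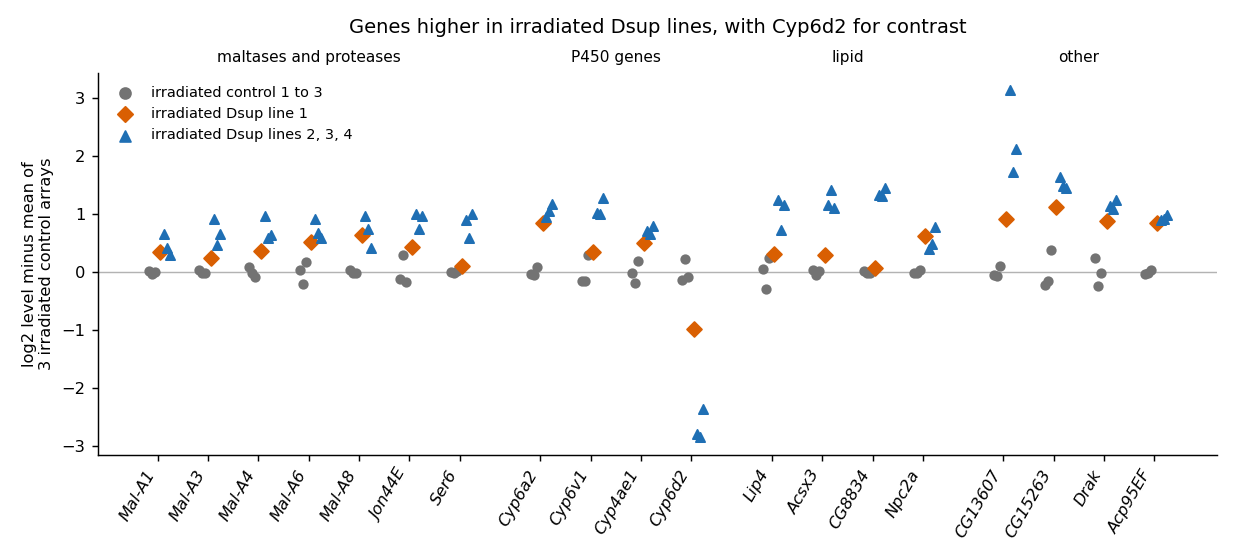
Log2 level minus the mean of the 3 irradiated control arrays (y axis) for genes that were higher in the irradiated Dsup lines, with Cyp6d2 as a gene that was lower (x axis), 1 point per array. The Dsup lines lie above all 3 controls for each of the higher genes, farthest for CG13607, while line 1 lies next to the controls for CG8834 and Ser6.

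Some of the lowest genes carry only a systematic name. CG3448 read 6.64, 6.80 and 6.61 in the controls and 5.99, 4.28, 4.23 and 3.93 in the lines (-2.07 ± 0.33, adjusted p = 0.00126; -2.53 without line 1). CG5290 read 5.79 to 6.17 in the controls, 5.64 in line 1 and 3.74 to 4.02 in lines 2 to 4 (-1.61 ± 0.34, adjusted p = 0.00628; -2.05 without line 1). In both genes line 1 lay nearer to the controls than lines 2 to 4 did, and both were called in the interaction (-2.25 and -1.80). The dim CG12224 differed by -1.62 ± 0.24 (adjusted p = 0.00071; -1.92 without line 1). CG32284 differed by -1.86 ± 0.56 (adjusted p = 0.0425), a call lost without any 1 array other than line 1, with adjusted p up to 0.171.

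The largest increase among called genes on probe sets with a single gene symbol was that of CG13607, which read 3.43, 3.41 and 3.59 in the controls and 4.40, 6.61, 5.21 and 5.59 in the lines. The groups did not overlap, and line 2 was the highest. The difference was 1.98 ± 0.42 (3.94-fold, adjusted p = 0.00671; 2.33 without line 1). CG15263 followed with 1.43 ± 0.29 (adjusted p = 0.00537; 1.53 without line 1).

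Drak, a kinase related to the death-associated protein kinases, read 2.63 to 3.11 in the controls and 3.74 to 4.11 in the lines. Line 1 was only slightly below the other lines, and the difference was 1.09 ± 0.15 (adjusted p = 0.000473; 1.16 without line 1). Acp95EF, an accessory gland peptide gene, was higher by 0.91 ± 0.16 (adjusted p = 0.00268; 0.93 without line 1), while it was the only 1 of 30 measured accessory gland genes to be called. The calls of CG13607, CG15263, Drak and Acp95EF held without any 1 array.

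Chromatin proteins were called in both directions, 4 higher and 7 lower of 43 measured, against 4.52% and 5.69% of all genes, with a median of 0.02. The histone chaperone asf1, which carries histones H3 and H4, read 4.40, 4.13 and 4.14 in the controls and 3.41, 3.35, 3.50 and 3.14 in the lines. Here line 1 did not differ from the other lines. The difference was -0.87 ± 0.10 (adjusted p = 0.00017; -0.90 without line 1), and it was opposite to that in untreated flies (0.38, adjusted p = 0.021), with an interaction of -1.26 (adjusted p = 0.000267). Both untreated means of asf1, 2.96 in the control and 3.34 in the Dsup lines, lay below the dim limit of 3.35.

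Ssrp, a subunit of the nucleosome-handling complex FACT, read 5.11, 5.12 and 5.04 in the controls and 4.90, 3.92, 4.08 and 3.49 in the lines (-0.99 ± 0.23, adjusted p = 0.0107; -1.26 without line 1). Su(z)12 and Psc, members of Polycomb complexes, and the deacetylase Sirt1 were lower, with differences between -0.41 and -0.32. The remodellers Chd1 (0.38), Mi-2 (0.32) and the remodelling subunit mor (0.35) were higher. Of these 6 smaller calls, all were lost without control 1 and some also without another array, with adjusted p up to 0.176, while all 6 held without line 1. On the deposited scale, before the arrays were brought together, Chd1, mor and Mi-2 were at -0.08, -0.11 and -0.15, above the shift of -0.45 of all genes on that scale. When ribosomal protein genes were set equal, Chd1 (0.31), mor (0.27) and Mi-2 (0.23) were not called. Psc was not called when array medians were set equal (-0.25). The histone variant gene His2Av was not called (-0.24 ± 0.08, adjusted p = 0.0855).

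Of 24 measured replication genes 5 were lower and 1 higher, where 5.69% and 4.52% of all genes were, with a median of -0.20. Among the 15 that were not dim, 2 were lower and 1 higher, with a median of 0.02. Orc1, a subunit of the origin recognition complex that is dim, read 3.24, 3.23 and 3.09 in the controls and 2.27, 1.75, 1.89 and 1.88 in the lines (-1.24 ± 0.14, adjusted p = 0.000134; -1.35 without line 1). The helicase subunit Mcm2 differed by -0.60 ± 0.09 (adjusted p = 0.000969; -0.65 without line 1), and Cdc45, which activates that helicase, by -0.33. Cdc45 lost its call without Dsup line 4, control 1 or control 3 (adjusted p up to 0.089). Dp, the partner of E2F factors, was higher by 0.43 ± 0.09 (adjusted p = 0.00798).

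Of 30 measured immune genes 2 were higher and 3 lower, where 4.52% and 5.69% of all genes were, and the list's median was -0.39. Without line 1, 6 were lower, and line 1 alone had a median of -0.06. The drosomycin-like genes Drsl3 and Drsl2, both dim, differed by -1.64 ± 0.26 (adjusted p = 0.00118) and -0.71 ± 0.11 (adjusted p = 0.00129). Drsl2 was higher in untreated Dsup lines (0.73, adjusted p = 0.00093), and its interaction was -1.44. The receptor gene Tl was higher at 0.62 ± 0.14 (adjusted p = 0.00887; 0.75 without line 1) by its brighter probe set, while a dim probe set gave -0.46 and was not called. spz, the ligand of that receptor, was lower at -0.49 (adjusted p = 0.015), and lost its call without control 2 or control 3 (adjusted p up to 0.0877).

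Of 50 measured general transcription factors and Mediator subunits 6 were lower and 1 higher, where 5.69% and 4.52% of all genes were, with a median of -0.12. MED1, a Mediator subunit, read 3.96, 4.17 and 3.97 in the controls and 3.67, 3.40, 3.47 and 3.40 in the lines (-0.54 ± 0.11, adjusted p = 0.00492; -0.61 without line 1). Taf5 and the dim Taf7, subunits of the TFIID complex, differed by -0.33 and -0.55. Taf7 lost its call without control 1 and Taf5 without control 2 or control 3, with adjusted p up to 0.113.

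Smaller stress and regulatory lists held 2 calls each, where 10.2% of all genes were called. Of 9 measured JNK pathway genes, the filamin gene cher was higher (0.49 ± 0.09, adjusted p = 0.0023) and the dim transcription factor gene Ets21C lower (-0.73 ± 0.15, adjusted p = 0.00572). Of 5 Turandot stress peptide genes, the dim TotZ was higher (0.41) and the dim TotB lower (-0.44). TotB was not called when array medians (-0.21) or ribosomal protein genes (-0.28) were set equal. Of 10 circadian clock genes, Pdp1, an activator in the clock, read 7.27 to 7.61 in the controls and 6.97, 6.74, 6.41 and 6.22 in the lines (-0.87 ± 0.24, adjusted p = 0.0312), and the blue-light receptor cry was higher (0.40, adjusted p = 0.0259). Both clock calls were lost in several fits with 1 array left out, Pdp1 with adjusted p up to 0.125 and cry up to 0.0984. On the deposited scale cher and cry were at -0.01 and -0.09. When ribosomal protein genes were set equal, cry was not called (0.29). Of 16 transposon silencing genes, the helicase spn-E was higher (0.38) and the dim Argonaute gene piwi lower (-0.49), and piwi lost its call without any 1 control. Of 15 insulin and starvation genes, 2 were higher and 0 lower, 1 of them the transcription factor gene REPTOR-BP (0.62 ± 0.16, adjusted p = 0.0177), a call lost without Dsup line 2, control 1 or control 2.

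The receptor and cuticle lists consisted largely of dim probe sets. The counts of this paragraph stand beside 4.52% higher and 5.69% lower over all genes. Over genes that were not dim, these shares were 3.26% and 3.83%. Dim genes were thus called more often than genes as a whole, so counts of largely dim lists are a description. Of 166 measured olfactory and gustatory receptor genes, all but 4 of them dim, 10 were higher and 16 lower, and every called one was dim. The sugar receptor gene Gr43a differed by -0.51, Or43b by -0.53 and Gr10b by 0.79. When array medians were set equal, Gr43a (-0.27) and the cuticle protein gene TwdlC (-0.25) were not called. Of 105 cuticle protein genes 7 were higher and 6 lower, with Cpr78Cb at 0.59, Lcp65Ac at -0.59 and TwdlC at -0.39, and of 47 odorant-binding proteins 1 was higher and 1 lower. Among markers of the male organs, 2 of 45 testis genes were higher and 1 lower, and 1 of 6 ejaculatory bulb and duct genes was lower: EbpII, at 12.21 to 12.43 in the controls and 12.16 or less in every line (-0.28, adjusted p = 0.0367; lost in 5 of 7 fits with 1 array left out). EbpII was not called when array medians (-0.07) or ribosomal protein genes (-0.13) were set equal. Of 14 Malpighian tubule genes 2 were higher, the phosphate transporter-like gene Picot (0.43) and the potassium channel gene Irk1 (0.53), and both calls were lost without any 1 control. A dim probe set of Irk1 was also called higher (0.85, adjusted p = 0.00843). Neuron markers had 1 call of 25 (Shab, 0.39), lost in 5 of 7 fits with 1 array left out. Photoreceptor markers had 2 of 18, cry higher (0.40) and rdgC lower (-0.28). The rdgC call was lost in all 7 such fits. Another probe set of rdgC that was not dim was also called lower (-0.70, adjusted p = 0.0424). A dim probe set of Shab was not called (0.07). Hemocyte markers had 1 of 16, the dim PPO3 (0.61).

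Several abundant gene classes showed next to no called members, where 10.2% of all genes were called. Nearly all their members were not dim, and 7.09% of the genes that were not dim were called. By limma 0 of the 34 measured cytosolic ribosomal protein genes and 0 of the 40 proteasome genes were called, where an unadjusted p below 0.05 was reached by 3 in each list, and 1 each of 74 oxidative phosphorylation subunits and 69 mitochondrial ribosomal proteins passed. Their medians were 0.01, 0.02, 0.06 and -0.06, and -0.38, -0.50, -0.34 and -0.56 on the deposited scale. The muscle, fat body and antenna marker lists also had 0 called members by limma, of 19, 13 and 17 measured, with 2, 0 and 3 at an unadjusted p below 0.05. Muscle markers averaged 10.46 to 10.53 in the controls and 10.41 to 10.81 in the lines.

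The genotype differences after irradiation were set beside those in untreated flies. Among the 663 called genes that were not dim, 41 were called in the same direction in untreated flies and 17 in the opposite one, and 233 were called in the interaction. Over all 9353 such genes, 7.07% were called in untreated flies and 4.76% in the interaction, and over all 11982 genes 9.35% and 7.34%. Control and Dsup arrays of the irradiated flies enter both the irradiated difference and the interaction, so these counts are not independent. The correlation of the irradiated and untreated genotype differences across these 9353 genes was 0.133, as a description over genes, which are not independent. The 2 differences share no array.

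Genes that differed alike in both treatments included CG31664, at 3.47 to 4.16 in the irradiated controls and 4.34 to 5.26 in the lines (1.16 ± 0.22, adjusted p = 0.00402), with 1.19 in untreated flies (adjusted p = 0.0032). By the same rule Nepl20, CG17404, CG4619 and CG42792 were higher, and CG2961, CG34431, CG13868, AstCC and CG15042 lower, in both treatments. CG42792 and CG13868 each lost the irradiated call in 5 of 7 fits with 1 array left out.

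For the lower stress genes, the levels of all 4 groups stand as follows. RnrL averaged 3.33 ± 0.49 in untreated controls, 5.8 ± 0.05 in irradiated controls, 3.73 ± 0.29 in untreated Dsup lines and 4.56 ± 0.53 in irradiated Dsup lines (SD; n = 4, 3, 4 and 4). Cyp6d2 averaged 4.72, 8.09, 4.74 and 5.84 in the same order. Both genes were therefore higher after irradiation in each genotype's mean, and the genotypes were closer to each other in untreated than in irradiated flies. CG13607 had the opposite pattern, at 5.49 in untreated controls, 3.47 in irradiated controls, 5.76 in untreated Dsup lines and 5.45 in irradiated Dsup lines.

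**Figure D5:**
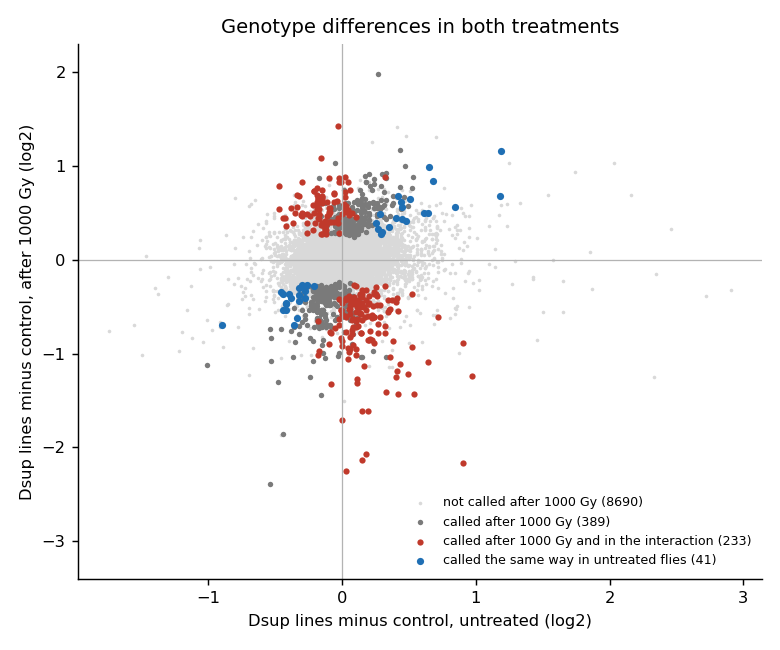
Genotype difference, Dsup lines minus control, in untreated flies (x axis) and after 1000 Gy (y axis), both log2, for the 9353 genes that were not dim. The 233 genes also called in the interaction (red) lie mostly near zero on the untreated axis or on its opposite side, and the 41 called alike in both treatments (blue) lie in the upper right and lower left. The choice of the red and blue genes by these calls shapes where they lie.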

How the data were processed

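Total RNA from pooled whole male flies was labelled for an Affymetrix 3′ expression array, starting from 250 ng RNA per the labels' protocols. The deposited table holds the authors' processed values on a log2 scale for 18952 probe sets; the authors' steps behind these values are not stated in the labels. The 4 groups had different deposited means, 4.87 in irradiated controls and 4.49 in irradiated Dsup lines, so all 15 arrays were quantile-normalized together. The 183 Affymetrix control probe sets were then left out.

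Each probe set was fitted in limma 3.58.1 under R 4.3.3 (lmFit, contrasts and eBayes over all 15 arrays in 4 groups, two-sided, Benjamini-Hochberg over 18769 probe sets). The script was tested on simulated data. Of these probe sets 13647 had 1 gene symbol, 402 had several and 4720 had none in the platform annotation; the probe set with the highest mean stood for each gene. The p-values measure the spread between these arrays, whose small number limits the precision. That spread includes the 3 irradiated control arrays, whose independence was not tested. If they are not independent replicates, the standard errors and adjusted p-values are too small.

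The comparison and the 37 gene lists were chosen with earlier results of these data known. Named genes followed a rule: the 12 highest and 12 lowest differences among called genes without overlap, up to 3 called members of each list by smallest p, the 5 strongest each way that were called alike in untreated flies, the 5 strongest each way among genes also called in the interaction, and a short fixed list; 3 of that list, w, Act5C and Sod1, had no probe set with a single symbol and were not analysed here. The rule gave 107 genes, and 45 more were named after their values were seen. Replicate numbers were not used to pair the samples in the main fit. Deviations of same-numbered arrays correlated at 0.21, -0.15 and -0.01 in irradiated flies and at 0.23, 0.14, 0.01 and 0.46 in untreated flies. Arrays of unlike number correlated at -0.31 to 0.20 in irradiated and -0.59 to 0.35 in untreated flies. Alternatives were the deposited values, centring on the median or on ribosomal protein genes, the 7 irradiated arrays alone, no dim probe sets, blocks for replicate number, Dsup line and spike-in level, an RNA integrity covariate, trended moderation, and leaving out each irradiated array. No sequence is given because none was in the reference tables used here.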

Additional observations from a re-analysis of the deposited data

Results flagged for a closer look

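Of the 107 genes named by rule and the 45 named after their values were seen, 17 had 1 irradiated Dsup line far from the other 3. Many genes were named for a large irradiated difference, so this count is a description. The measure is the gap from that line to its nearest neighbour divided by the range of the 4 lines, above 0.829, a limit that chance passes in about 1 of 20 groups. In 14 of the 17 genes the line was Dsup line 1. It was the highest of the 4 in LManIV (0.84), Irbp (0.847), CG5290 (0.849), Hsp60A (0.884), DNAlig4 (0.899), CG32284 (0.9), Taf7 (0.917), mei-9 (0.926), TotZ (0.926), Arc2 (0.927), CG12224 (0.932) and Irbp18 (0.938). It was the lowest in Tl (0.86) and CG8834 (0.899). The others were cry with line 2 highest (0.873), and soti (0.83) and yl (0.864) with line 4 lowest.

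For 73 named genes the genotype difference after 1000 Gy differed from that in untreated flies in limma's test of the interaction (adjusted p below 0.05). Some of these genes were named for their interaction or for a large irradiated difference, so their number is a description. Untreated levels were dim for some, such as Ugt302K1 at 1.72 in the control and 1.79 in the Dsup lines. The value in brackets is the irradiated minus the untreated genotype difference in log2 units. Below zero it was largest in size for GstD5 (-3.58), GstD2 (-3.07), Ugt302K1 (-2.68), GstD4 (-2.28), Cyp6d2 (-2.28), CG3448 (-2.25), Drsl3 (-2.05), CG5290 (-1.80), Hsp68 (-1.76), Hsp26 (-1.71), LManIV (-1.67), RnrL (-1.64), GstD10 (-1.53), Drsl2 (-1.44), Arc2 (-1.40), CG12224 (-1.37), Dgp-1 (-1.37), Orc1 (-1.35), GstD6 (-1.34), Ada2b (-1.29), asf1 (-1.26), RNaseZ (-1.23), Ugt49B2 (-1.22) and Ku80 (-1.10).

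Smaller values below zero belonged to Xpd (-1.08), GstE1 (-1.05), RfC4 (-1.04), Ifrd1 (-1.03), Mocs1 (-1.02), GstD8 (-0.99), eIF6 (-0.98), Hsp27 (-0.97), Ets21C (-0.94), Irbp18 (-0.92), GstD9 (-0.88), agt (-0.87), GstD7 (-0.85), GstD1 (-0.84), piwi (-0.82), LManIII (-0.80), Mcm2 (-0.79), mei-9 (-0.77), spz (-0.72), Cp16 (-0.69), gkt (-0.64), Lcp65Ac (-0.58), Obp50e (-0.56), Gclc (-0.54), Su(z)12 (-0.48), Psc (-0.47) and EbpII (-0.38). Values above zero belonged to bcd (0.47), cher (0.49), mus81 (0.59), Mal-A1 (0.60), Cyp4ae1 (0.65), Tl (0.68), Shab (0.76), REPTOR-BP (0.81), Ugt304A1 (0.82), Mal-A6 (0.82), Mal-A8 (0.88), Acsl (0.89), tsh (0.97), can (1.01), Cpr78Cb (1.07), CG34038 (1.13), vilya (1.18), CG33639 (1.25), Drak (1.25), GstT4 (1.26), CG15263 (1.46) and mira (1.49).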

How the results depend on the processing

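Precision is limited by 3 control and 4 Dsup arrays, by 1430 of 2246 called probe sets being dim, and by Dsup line 1. It is also limited by the irradiated controls, whose independence was not tested. Against 2246 called probe sets (1110 higher, 1136 lower), deposited values gave 11606 (291 higher, 11315 lower), median centring 4232 (3228 higher, 1004 lower), ribosomal centring 3722 (2336 higher, 1386 lower), the 7 irradiated arrays alone 3561, leaving out dim probe sets 477, lower spike-in arrays 23 and higher spike-in arrays 311. Leaving out 1 array gave 1057 (without control 2) to 2623 (without Dsup line 1), with 1105 without control 1 and 1237 without control 3. The cause of these shifts was not tested. The interaction, 1705 probe sets, gave 4298, 136, 955, 2 and 223 with deposited values, no dim probe sets, the RNA integrity covariate, and lower and higher spike-in arrays, and 863 to 1886 with 1 array left out. The untreated difference, 2010, gave 16742 with deposited values, 3171 with median centring, 324 without dim probe sets, and 22 and 326 within lower and higher spike-in arrays. Members of the 1220 genes in lists, 158 called, came to 768, 249, 54, 2 and 34 with deposited values, median centring, no dim probe sets, and lower and higher spike-in arrays, and 75 to 179 with 1 array left out. With the replicate number as a block, a pairing not used in the main fit, 2008 probe sets were called. Of the 100 called genes named by rule, 69 kept their call without any 1 array, 96 without Dsup line 1, 83 with the RNA integrity covariate, 36 within higher spike-in arrays (1 control), 2 within lower ones (1 Dsup line), and 74 with deposited values. Signs turned with deposited values, whose median over genes was -0.45, for cher (-0.01), Dp (-0.04), tefu (-0.03), ND-51 (-0.20), cry (-0.09), soti (-0.13), Picot (-0.08), Chd1 (-0.08), mor (-0.11), Mi-2 (-0.15), and the uncalled GstD11 (-0.25), Gapdh1 (-0.21) and Cat (-0.44), and with another probe set for Tl (-0.46) and bcd (-0.08). Leaving out both arrays of line 1, an alternative chosen after seeing the data, gave 2815.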

Other observations

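Further lower genes in the irradiated Dsup lines were chosen after their values were seen. The non-coding RNA gene lncRNA:alphagamma-element:CR32865, a heat-inducible transcript of a heat shock gene cluster, read 8.60, 8.24 and 8.07 in the controls and 8.23, 4.72, 5.47 and 5.24 in Dsup lines 1 to 4. Line 1 lay within the controls and lines 2 to 4 far below, with a difference of -2.39 ± 0.62 (adjusted p = 0.0209; -3.16 without line 1), a call lost without any 1 array other than line 1 (adjusted p up to 0.0878). RNaseZ, which processes transfer RNA ends, read 5.19 to 5.24 in the controls and 4.37, 3.85, 3.70 and 3.68 in the lines (-1.32 ± 0.15, adjusted p = 0.000132; -1.47 without line 1). Dgp-1 differed by -1.27 ± 0.18 (adjusted p = 0.000473). Ada2b, a subunit of histone acetyltransferase complexes, read 6.44, 6.71 and 6.53 in the controls and 6.27, 5.17, 5.01 and 5.28 in the lines (-1.13 ± 0.24, adjusted p = 0.00697; -1.41 without line 1). RfC4, a subunit of the replication clamp loader, differed by -0.95 ± 0.20 (adjusted p = 0.00716).

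mal and Mocs1, both needed for the molybdenum cofactor, were lower by nearly the same amount. mal read 7.76 to 7.80 in the controls and 7.48, 6.45, 6.52 and 6.74 in the lines (-0.99 ± 0.20, adjusted p = 0.00588; -1.22 without line 1). Mocs1 read 7.55 to 7.58 and 7.20, 6.31, 6.34 and 6.60 (-0.95 ± 0.17, adjusted p = 0.00227; -1.15 without line 1). Traf4, a signalling adaptor, trbl, the tribbles pseudokinase, and Arc2, a Gag-related gene, differed by -1.08, -1.04 and -1.04. Another, dim, probe set of Traf4 was not called (-0.13). trbl lost its call without control 2, and Arc2 without any 1 array other than line 1, with adjusted p up to 0.0904. The translation factor eIF6 differed by -0.94 and Ifrd1 by -0.98. Among higher genes, the transcription factor tsh was at 4.08 to 4.36 in the lines, above all controls (0.87 ± 0.07, adjusted p = 3.92e-05). The acyl-CoA synthetase Acsl was also higher (0.87 ± 0.19, adjusted p = 0.00936), a call lost without control 2 (adjusted p = 0.0529).

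The largest increase of any probe set assigned to genes was on one shared by PGRP-SC1a and PGRP-SC1b, which encode amidases that degrade peptidoglycan. It read 4.76, 5.11 and 4.47 in the controls and 6.89, 8.45, 6.98 and 7.40 in the lines, so that line 1 stood with the other lines. The difference was 2.65 ± 0.55 (6.26-fold, adjusted p = 0.00608; 2.83 without line 1), against 0.87 in untreated flies (adjusted p = 0.292). In all, 21 called probe sets with a difference of 2-fold or more had no single gene symbol, 18 of them no symbol at all.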
